A study of Homo sapiens with 4 samples.

Results

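The comparison described here sets the PLX4720-resistant derivative of HT29 (HT29RC) against the PLX4720-resistant derivative of Colo205 (Colo205RC) and asks which differences between the lines remain, vanish or arise once both are resistant. It rests on 2 of the 4 arrays in the series, 1 for each resistant line, with the 2 parental arrays as the reference for what differed before. The genes were chosen by chromosome and signal alone: 13223 autosomal genes, of 18987 on the array, had a reading at or above the filter value in at least 1 of the 4 arrays. The filter value was 5.73, the median of all log2 readings in the table, and a reading below it was not shown to lie above background. A difference that rests on such a reading has no exact size, and the lower bounds given for such genes are counted from the filter value. Each bound holds for the single probe set read for the gene, and other probe sets of the gene can give a smaller difference.

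HT29 and Colo205 are widely used, established lines of colon cancer cells with epithelial character. Different lines of one tumour type commonly keep separate programmes of differentiation, adhesion and WNT signalling in culture, and many of their largest differences are genes that one line expresses strongly and the other hardly at all. Acquired resistance to a kinase inhibitor is selected within each line, so each derivative can carry both what its parent had and what came with selection.

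The 4 groups were parental HT29, parental Colo205 and the resistant derivative of each, 1 array a group. The derivatives were obtained by culture in rising amounts of PLX4720, a kinase inhibitor, and the series text calls them clones. All cells were grown with 10% serum, and both derivatives were kept 24 h without PLX4720 before harvest, so both were read after withdrawal of the drug. The labels do not say how many cultures stand behind an array. With 1 array a side, no difference below has a test or a replicate check. As a stand-in for technical scatter, probe sets of one gene differed from each other with a pooled SD of 0.55 (log2) in the resistant difference, over 6404 genes with several probe sets. The same SD was 0.53 for the parental difference and 0.39 for the shift from one to the other.

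The resistant arrays were alike in scale, and both read as colon epithelium. The resistant HT29 and Colo205 arrays had medians of 8.18 and 8.21 over the 13223 genes, and the median difference between them was -0.02. Of 17 colon epithelial markers, 16 were past the filter in each resistant line. EPCAM, the epithelial adhesion molecule, read 13.75 in resistant HT29 and 13.97 in resistant Colo205. Not all members were so close: of 16 measured, 3 were 2-fold or more higher in resistant Colo205 and 1 in resistant HT29. GPA33 differed by -4.37, and LGALS4 the other way by 1.33. Leukocyte markers past the filter numbered 4 and 3 of 12, with PTPRC, the pan-leukocyte phosphatase, at 3.70 and 3.90, and stromal markers numbered 7 and 6 of 12. LYZ, a secreted lysozyme that intestinal secretory cells also make, was the highest of the leukocyte list, at 13.56 and 13.48. Probe sets for the 3-prime, middle and 5-prime parts of ACTB differed between the resistant lines by 0.42, 0.88 and 1.15, against 0.31, 0.40 and 0.42 between the parents. The part of this gradient in any difference below was not tested.

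Many of the strongest line differences lie in genes at the top of the array's range in one line and near or below the filter value in the other. The start regions of 4 of these genes, picked after the values were seen, are given to show what kind of sequence stands before them: KRT20 and LDHB, high in HT29 in both states; PLA2G2A, high in Colo205 in both states; and GLUL, low in resistant Colo205 alone. Each is the 250 bases before the annotated start, 5′ to 3′ on the gene's strand, from RefSeq (GRCh38.p14), with CG dinucleotides in capitals. KRT20 lies at chr17:40885243-40885492, LDHB at chr12:21657843-21658092, PLA2G2A at chr1:19979660-19979909 and GLUL at chr1:182391791-182392040, all on the minus strand.
KRT20: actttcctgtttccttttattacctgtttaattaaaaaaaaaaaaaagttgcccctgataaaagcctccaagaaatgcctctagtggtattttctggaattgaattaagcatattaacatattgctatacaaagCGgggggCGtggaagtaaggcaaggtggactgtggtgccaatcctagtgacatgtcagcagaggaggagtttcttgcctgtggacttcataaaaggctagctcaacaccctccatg
LDHB: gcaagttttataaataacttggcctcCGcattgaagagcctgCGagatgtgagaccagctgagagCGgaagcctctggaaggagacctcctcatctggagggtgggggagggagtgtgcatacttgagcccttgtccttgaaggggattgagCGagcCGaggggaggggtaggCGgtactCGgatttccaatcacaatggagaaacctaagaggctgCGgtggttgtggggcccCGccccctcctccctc
PLA2G2A: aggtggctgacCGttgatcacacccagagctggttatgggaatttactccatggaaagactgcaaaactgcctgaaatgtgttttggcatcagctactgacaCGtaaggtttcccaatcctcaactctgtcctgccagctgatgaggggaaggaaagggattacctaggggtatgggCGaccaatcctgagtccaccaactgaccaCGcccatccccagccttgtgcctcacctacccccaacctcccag
GLUL: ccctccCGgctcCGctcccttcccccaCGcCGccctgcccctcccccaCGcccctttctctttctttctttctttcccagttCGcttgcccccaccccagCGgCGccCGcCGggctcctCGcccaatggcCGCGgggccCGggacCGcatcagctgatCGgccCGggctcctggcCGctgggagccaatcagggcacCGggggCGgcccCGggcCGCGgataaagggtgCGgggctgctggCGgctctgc
The windows hold 2, 9, 4 and 25 CG dinucleotides in that order, against a median of 11 over 27305 genes with such a window. At least 25 were found in 21.3% of those windows, and 2 or fewer in 23.6%. The dinucleotide is its own reverse complement, so each match covers both strands. These counts describe the letters and say nothing of methylation, which was not measured.

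Between the resistant lines, 418 genes were 4-fold or more higher in HT29, or 3.16% of the genes, and 461 were 4-fold or more higher in Colo205, or 3.49%. At 2-fold or more the counts were 1228 (9.29%) and 1371 (10.4%). Between the parents the 4-fold counts were 286 (2.16%) higher in HT29 and 541 (4.09%) higher in Colo205, and the 2-fold counts 935 (7.07%) and 1526 (11.5%). The resistant lines therefore differed at 4-fold in 879 genes and the parents in 827. HT29 had the higher reading in 47.6% of the 4-fold genes of the resistant lines and in 34.6% of those of the parents. Centring each array on its median moved the parental share to 40.5% and the resistant share to 49.5%. That centring shifts the median parental difference over all genes from -0.01 to 0.13.

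Of the 827 parental differences, 552 remained 4-fold or more in the same direction. They make 66.7% of the parental list and 62.8% of the resistant list. A further 180 narrowed to between 2-fold and 4-fold, and 91 vanished to under 2-fold. On the resistant side, 219 differences widened from between 2-fold and 4-fold, and 103, or 11.7% of the resistant list, arose from under 2-fold. In 21 genes both differences were 2-fold or more but in opposite directions. Across genes, which are not independent replicates, the resistant and parental differences correlated with a Pearson's r of 0.835 and a Spearman's rho of 0.749. The arrays of the 2 differences are separate, but each derivative comes from its own parent.

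**Figure D1:**
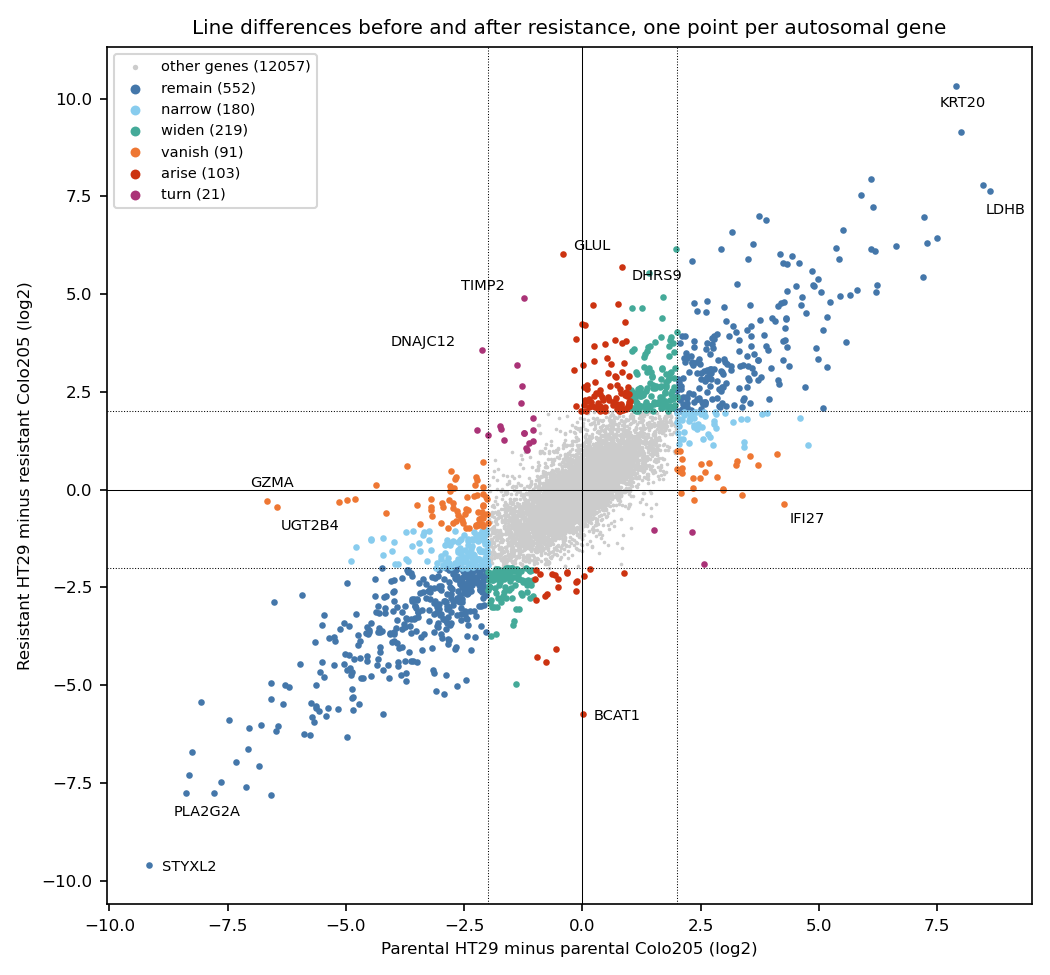
Each point is 1 of 13223 autosomal genes, with the parental HT29 minus Colo205 difference on the x axis and the resistant difference on the y axis (both log2); colours give the category with its number of genes and dotted lines mark 4-fold. The 552 genes that remain run along the diagonal out to KRT20 and STYXL2, while GLUL, DHRS9 and BCAT1 stand far from 0 on the y axis alone.

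The larger the parental difference, the more often it was still 4-fold, in part because of the fixed limit. A larger difference needs a larger move to fall under 4-fold. Among genes 4-fold to 8-fold higher in parental HT29 (2 to 3 on the log2 scale), 62.3% of 159 were still 4-fold higher, and at 32-fold or more (5 and above) 100% of 29 were. For genes higher in parental Colo205 the shares were 47.2% of 301 and 94.4% of 54. In log2 units the larger differences did not narrow less. The median change, negative for narrowing, was -0.12 and -0.48 in these 2 HT29 groups and -0.43 and -0.80 in those of Colo205. It was 0.09 for genes at 4 to 5 (log2) higher in parental HT29. By direction, 73.1% of the parental differences in favour of HT29 and 63.4% of those in favour of Colo205 remained. Of the 86 genes at 32-fold or more between the resistant lines, a limit chosen after the values were seen, 81 were among those that remained, and 44 of the 86 were higher in HT29. The fixed 4-fold limit bears on the 81 in the same way.

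Among the genes that remained, those leading on the HT29 side include an epithelial keratin and a secreted WNT antagonist. KRT20, the keratin of mature enterocytes, read 12.69 in HT29 before and 14.28 after resistance, against 4.79 and 3.95 in Colo205. The resistant difference of 10.32 (log2) rests on a Colo205 reading below the filter value; counted from that value it is at least 375-fold. DKK1, which blocks WNT coreceptors, read 12.14 and 13.08 in HT29 and 4.14 and 3.92 in Colo205, at least 164-fold higher in resistant HT29. Both genes are high in the HT29 arrays alone.

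LDHB, the lactate dehydrogenase subunit of oxidative tissues, read 13.84 and 13.89 in the HT29 arrays. Parental Colo205 read 5.23 and its derivative 6.24, so that both resistant readings passed the filter and differed by 7.65 (log2). Its 2 probe sets gave 7.65 and 10.54. ANXA10, an annexin of gastric-type epithelium, read 12.60 and 12.73 in HT29 against 5.10 and 6.28 in Colo205, a resistant difference of 6.45. PFN2, an actin-binding profilin, differed by 6.23 and EMP1, an epithelial membrane protein, by 5.78.

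On the Colo205 side, STYXL2, a catalytically inactive phosphatase-like protein, read 13.75 and 14.07 in the Colo205 arrays and 4.59 and 4.47 in those of HT29. This is at least 326-fold higher in resistant Colo205. LCK, the lymphocyte kinase of the SRC family, read 12.28 and 12.56 in Colo205 against 5.17 and 4.95 in HT29, and FAM3B, a secreted cytokine-like protein, 12.33 and 12.46 against 4.54 and 4.71. LCK is a T cell kinase by its usual expression. PTPRC was below the filter value in all 4 arrays, and GZMA, described below, read 10.53 in parental Colo205. A source of these readings in other cells was not tested.

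PLA2G2A, a secreted phospholipase of the intestinal crypt, read 14.26 in both Colo205 arrays and 5.89 and 6.51 in HT29. With both resistant readings past the filter, the difference was -7.75 (log2). LPXN, a focal adhesion adaptor, differed by -6.62, although its other probe set gave -0.59. BAMBI, a decoy receptor for TGF-beta family ligands, differed by -5.60 and MUC1, a membrane mucin, by -4.74, with its 3 probe sets between -5.51 and -1.87.

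Of the 91 differences that vanished, 66 had been higher in parental Colo205 and 25 in parental HT29. For 45 of the 66 the larger move was in Colo205, and in 43 of the 66 the derivative of Colo205 lay 2-fold or more below its parent. In 20 of the 66 the HT29 derivative was 2-fold or more higher than its parent. Low readings bear on many of them: 34 of the 66 and 13 of the 25 had a resistant reading below the filter value. The shares were alike among the differences that remained, at 177 of 343 in favour of Colo205 and 107 of 209 in favour of HT29.

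GZMA, a cytotoxic granule protease, read 10.53 in parental Colo205 and 3.98 in its derivative, with 3.87 and 3.68 in HT29. UGT2B4, a glucuronosyltransferase for bile acids, read 9.51 and 3.39 in Colo205 against 3.05 and 2.94 in HT29. FZD10, a WNT receptor, read 8.42 and 3.71 against 3.27 and 3.39. In all 3, parental Colo205 is the 1 array past the filter, and the resistant lines agree only in that both read below it.

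CDH17, the intestinal cadherin, closed its difference through HT29, which read 5.30 before and 11.24 after resistance, while Colo205 read 10.12 and 11.49. The line difference, which rests on a reading below the filter value in the parents, was -0.24 in the resistant lines. FABP1, the enterocyte fatty acid carrier, moved in both lines: HT29 read 4.60 and then 6.89, Colo205 8.95 and then 6.78. The parental HT29 reading is below the filter value, and the derivatives differed by 0.12.

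IFI27, an interferon-induced mitochondrial protein, read 11.56 and 10.32 in HT29 before and after resistance and 7.30 and 10.70 in Colo205. Its parental excess of 4.26 in HT29 was -0.38 in the resistant lines. NNMT, which methylates nicotinamide, read 9.26 and 5.45 in HT29 against 5.88 and 5.59 in Colo205. Both of its resistant readings lie below the filter value, so the resistant lines agree only in that. SPRR1B, a cornified envelope protein, was high in both derivatives, at 12.03 in HT29 and 12.30 in Colo205, after 7.36 and 5.01 in the parents.

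The 103 differences that arose were uneven in direction: 81 were higher in resistant HT29 and 22 in resistant Colo205. Between the resistant lines as a whole, 3.16% and 3.49% of genes were 4-fold in these directions. For 58 of the 81 the larger move was in HT29, with 55 of the 81 2-fold or more higher in the HT29 derivative than in its parent. All 4 readings were past the filter in 48 of the 81 and in 16 of the 22.

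GLUL, glutamine synthetase, made the largest difference among them. It read 11.93 in parental HT29, 11.81 in resistant HT29 and 12.34 in parental Colo205, but 5.77 in resistant Colo205. The difference was 6.03 (log2), or 65.6-fold, and its 3 probe sets gave 2.13 to 6.03. Resistant Colo205 is the low array, and the other 3 lie close together.

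DHRS9, a retinol dehydrogenase, read 12.75 in resistant HT29 and between 6.62 and 7.45 in the other 3 arrays. Its resistant difference was 5.68, with 5.68 to 6.55 over its 3 probe sets. IGFL2, an insulin-like growth factor family member, read 10.23 in resistant HT29 against 5.44 to 6.19 elsewhere, and AHNAK2, a large scaffold protein, 10.01 against 5.28 to 5.78. MMP1, interstitial collagenase, read 7.67 in resistant HT29 and below the filter value in the other 3 arrays. In all 4 genes the resistant HT29 array stands above the others. FKBP11, a chaperone of the endoplasmic reticulum, was low instead in resistant Colo205, at 7.06 against 10.92 in resistant HT29.

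BCAT1, the cytosolic branched-chain aminotransferase, led the other direction: it read 10.16 in resistant Colo205 and 4.38 to 4.42 in the other 3 arrays. This is at least 21.6-fold higher in resistant Colo205, and all 4 of its probe sets had the same sign. ETFRF1, a regulator of the electron transfer flavoprotein, read 13.36 in resistant Colo205 and 9.83 in its parent, with 9.06 and 8.95 in HT29. FGF9, a fibroblast growth factor, differed by -4.08 through a low reading in resistant HT29, 5.99 against 8.94 in its parent.

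BCAT1, ETFRF1 and DNAI7 are near neighbours on chromosome 12. From CMAS to ETFRF1 there are 7 measured genes, a stretch chosen after the values were seen. All 7 were 2-fold or more higher in resistant Colo205 than in resistant HT29, where 10.4% of all genes were. None of them differed 2-fold between the parents. These counts follow in part from the choice of the stretch. In 6 of the 7 the Colo205 derivative read 2-fold or more above its parent. DNAI7 counts in both the 7 and the 6, but it read 5.90 in resistant Colo205 and below the filter value in every other array. Counted from that value, its resistant difference is at least 1.13-fold, so 2-fold is not shown for it. CMAS, which activates sialic acid, read 12.01 in resistant Colo205 and 9.16 in its parent. Its other probe set gave a resistant difference of -0.54, under 2-fold. LDHB is the next measured gene before CMAS and has the opposite line difference. The stretch lies within a run of 52 genes from LDHB to ARID2, also delimited on these values. That run had a median of 0.75 between the resistant lines and 0.57 between the parents.

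PER3, a circadian clock component, was at least 12.4-fold higher in resistant Colo205, with readings of 7.37 and then 5.08 in HT29 and 8.34 and then 9.36 in Colo205. Both of its probe sets had the same sign, but the other gave -0.52. TCN1, a vitamin B12 carrier, read 9.22 in resistant Colo205 against 6.52 in its parent and 7.40 and 7.09 in HT29.

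Of the 21 genes whose difference turned, 18 ended higher in resistant HT29 and 3 in resistant Colo205. TIMP2, a metalloproteinase inhibitor named after its values were seen, read 8.32 and then 11.22 in HT29 and 9.56 and then 6.33 in Colo205. The difference went from -1.24 to 4.89, with its 3 probe sets on the same side of 0. DNAJC12, a cochaperone of aromatic amino acid hydroxylases, read 7.72 and 9.05 in HT29 and 9.85 and 5.47 in Colo205. On the probe set used, it turned from -2.12 to at least 9.99-fold higher in HT29. Its 3 probe sets gave -2.12 to -1.11 between the parents and 1.22 to 3.57 between the resistant lines.

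GEM, a small GTPase, went from -1.74 to 1.64, with 9.99 in resistant HT29 against 5.83 in its parent. FOXD1, a forkhead factor, went from -2.23 to 1.53, as HT29 read 6.11 and then 7.82 and Colo205 8.34 and then 6.29. In the opposite direction IFIT1, an interferon-induced antiviral protein, went from 2.56 to -1.90 and ADRA2A, an adrenergic receptor, from 2.31 to -1.09. The resistant HT29 reading of IFIT1 was below the filter value.

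**Figure D2:**
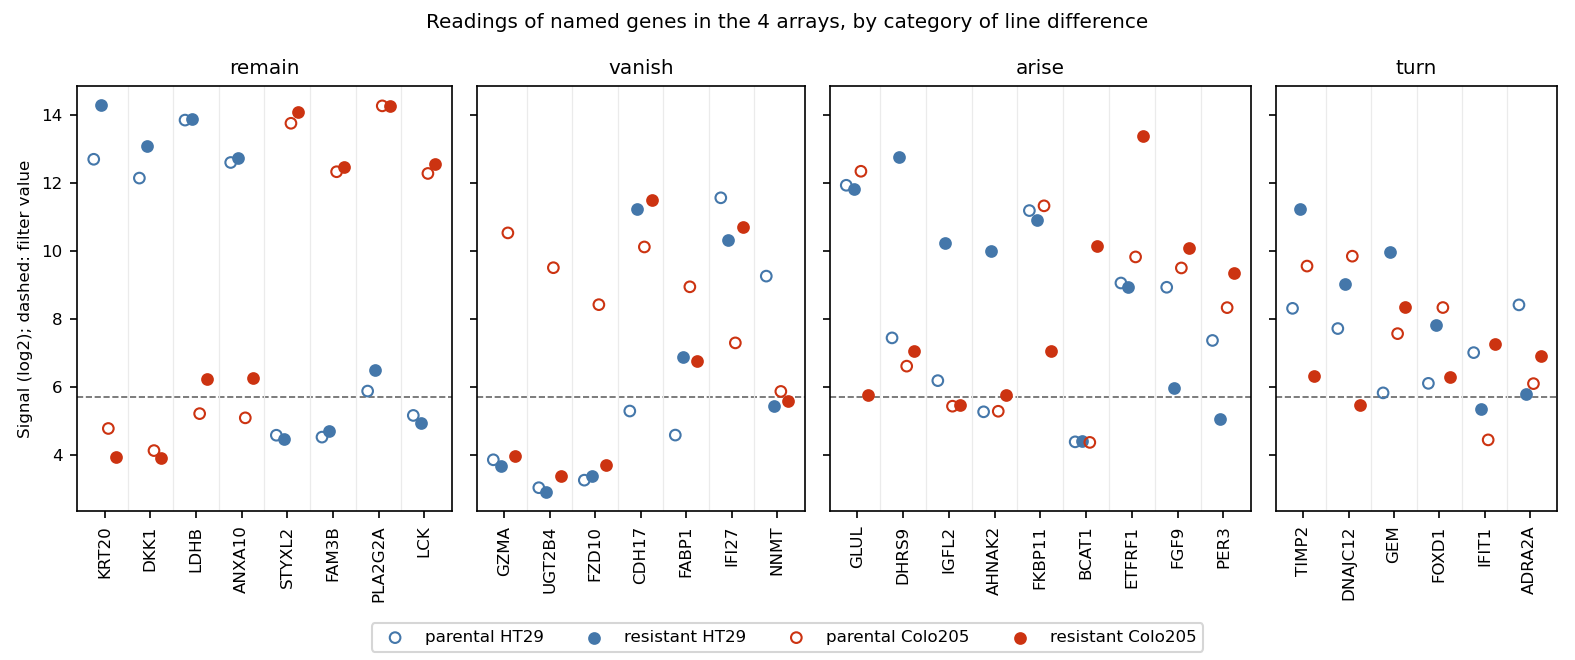
Log2 signal (y axis) of named genes in each of the 4 arrays, with open symbols for the parents and filled symbols for the resistant derivatives, HT29 in blue and Colo205 in red; the dashed line is the filter value of 5.73. KRT20 and PLA2G2A keep the lines apart in both states, GZMA is past the filter in parental Colo205 alone, and GLUL is low in resistant Colo205 alone.

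Grouped by function, 11 of 38 gene lists had a median resistant difference of 0.5 or more in either direction, a limit chosen after the values were seen. The median over all genes was -0.02, so these medians are set against a value near 0. The 2-fold counts of members below stand beside shares over all genes. These were 9.29% higher in HT29 and 10.4% higher in Colo205 between the resistant lines, and 7.07% and 11.5% between the parents. Without the filter on low readings 6 lists passed that limit, and with a filter at the 75th percentile 18 did.

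Integrins and laminins, the receptors and ligands of the basement membrane, had a median of 1.59 over 17 measured members, against 0.62 between the parents. Of the 17, 10 were 2-fold or more higher in resistant HT29 and 2 in resistant Colo205, where 9.29% and 10.4% of all genes were. LAMC1, a laminin chain, read 10.19 in resistant HT29 and 7.22 in resistant Colo205, and differed by 2.97 against 1.16 between the parents. ITGB8, an integrin subunit that activates latent TGF-beta, differed by 2.85. ITGA1, a collagen receptor, differed the other way by -1.64. ITGB8 lies in a run of chromosome 7 described below, and without it the median was 1.37.

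YAP-TEAD targets, genes driven by the Hippo pathway's transcription factors, had a median of 1.49 over 19 members, against 0.30 between the parents. In the resistant lines 11 of the 19 were 2-fold or more higher in HT29 and 2 in Colo205. The matricellular genes CCN2 and CCN1 read 9.92 and 9.55 in resistant HT29 and 4.68 and 4.79 in resistant Colo205, at least 18.3-fold and 14.2-fold higher in HT29. Both Colo205 arrays were below the filter value for both genes. The other probe set of CCN1 gave 2.84. IGFBP3, a binding protein for insulin-like growth factors, had the opposite direction, at least 15.8-fold higher in resistant Colo205. The other probe set of IGFBP3 gave -2.19. LATS2, a Hippo pathway kinase, arose at 2.45.

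WNT targets and intestinal stem cell genes had the lowest median of the 38 lists, -1.68 over 18 members, against -1.11 between the parents. In the resistant lines 10 of the 18 were 2-fold or more higher in Colo205 and 2 in HT29, against 10 and 1 between the parents. LGR5, the crypt stem cell receptor, read 8.53 and then 5.10 in HT29 and 9.94 and then 10.06 in Colo205, so that a parental difference of -1.41 became at least 20.2-fold in favour of Colo205. Its other probe set gave a smaller difference of the same sign, -1.05. SMOC2, a matricellular protein of stem cells, read 12.22 and then 9.74 in Colo205 and below the filter value in both HT29 arrays, at least 16.1-fold higher in resistant Colo205. The other probe set of SMOC2 gave -1.43. PROM1, a membrane glycoprotein of progenitors, went against its list: it read 10.23 in resistant HT29 and 4.39 in resistant Colo205, at least 22.8-fold higher in HT29, against 2.32 (log2) between the parents.

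Interferon-stimulated genes had a median of -0.53 over 32 members, against -0.17 between the parents. Over the settings tried the resistant median ran from -0.96 to -0.36. Between the parents 5 were 2-fold or more higher in HT29 and 5 in Colo205; in the resistant lines the counts were 1 and 13. XAF1, a pro-apoptotic inducible protein, was at least 7.22-fold higher in resistant Colo205. GBP2, a guanylate-binding protein, differed by -2.57, and both already differed 4-fold between the parents. IFIT3 arose at -2.14. The median move of the list was -0.45 in HT29 and 0.17 in Colo205. SAMD9, an antiviral factor, was the 1 member 2-fold higher in resistant HT29, by 1.29.

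MHC class I presentation genes had a median of -0.81 over 17 members, against -0.95 between the parents, with 7 of 17 2-fold or more higher in resistant Colo205 and 0 in HT29. PSMB9, an immunoproteasome subunit, read 4.99 in resistant HT29 and 9.38 in resistant Colo205, and PSMB8, its partner, 7.79 and 10.67. Both differences remained from the parents.

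**Figure D3:**
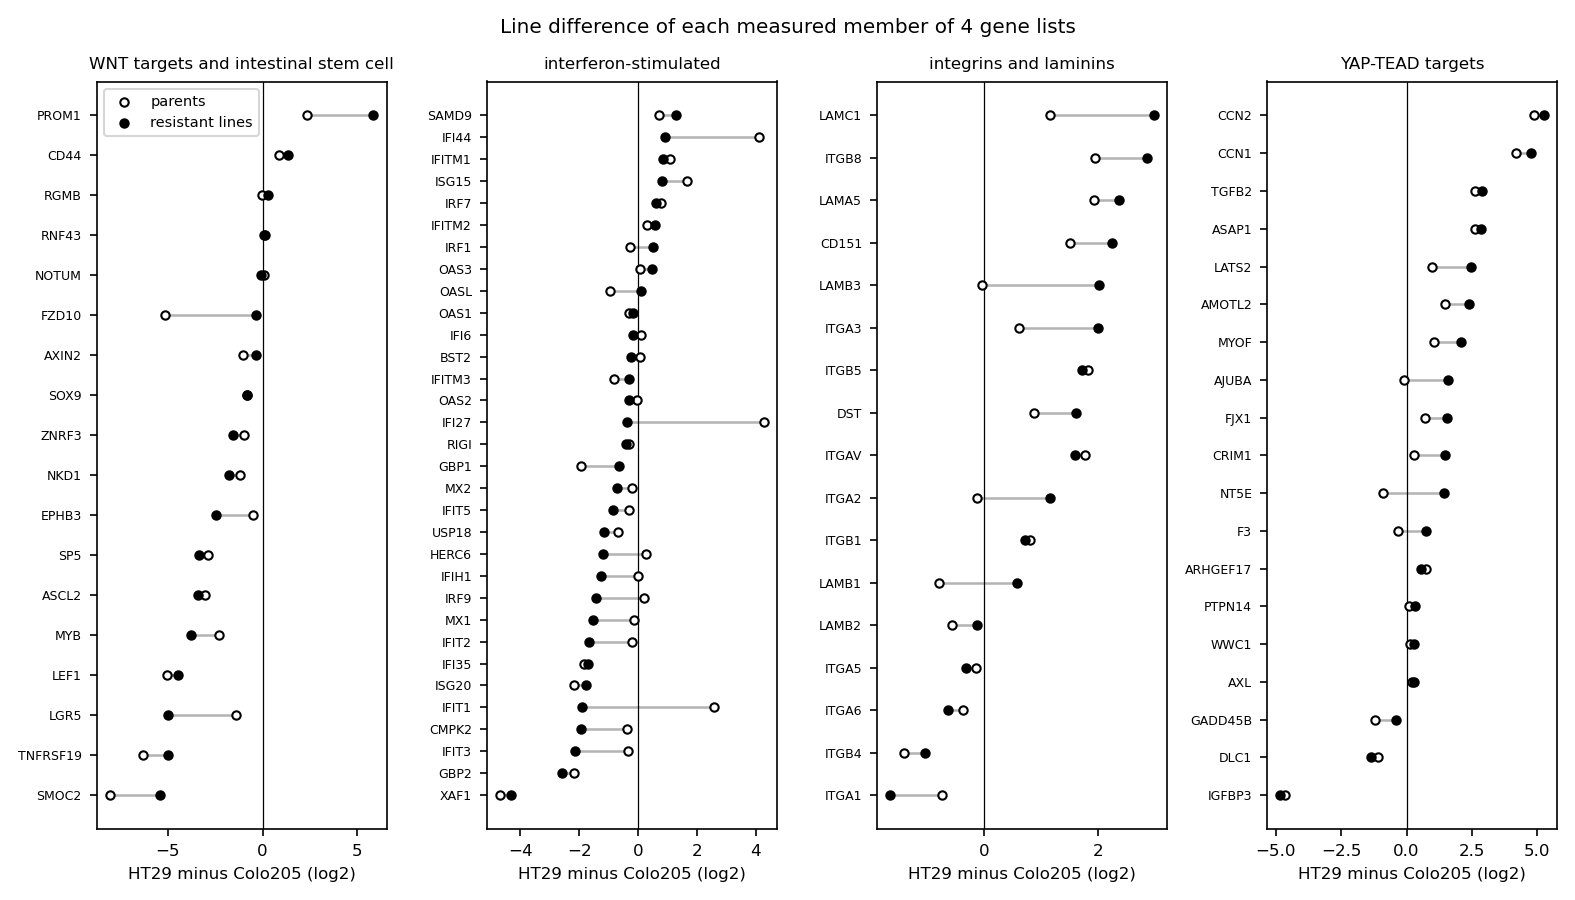
Each row is a measured member of 1 of 4 gene lists, with the HT29 minus Colo205 difference (x axis, log2) between the parents as an open point and between the resistant lines as a filled point; the x scales differ between panels. WNT and stem cell genes lie mostly left of 0 in both states, with PROM1 furthest right in the resistant lines, and 13 interferon-stimulated genes lie at -1 or below in the resistant lines.

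Genes read as output of the ERK pathway, the mitogen-activated kinase cascade, had a median of 0.67 over 25 members against 0.01 between the parents. In the resistant lines 10 were 2-fold or more higher in HT29 and 4 in Colo205, and the members split by name. Between the parents these counts were already 8 and 3, and 10 members differed 2-fold in the same direction in both states. DUSP5, a nuclear ERK phosphatase, read 10.05 in resistant HT29 and 6.63 in resistant Colo205, a difference of 3.42. DUSP4, a related phosphatase, differed by -2.57, with 9.04 in resistant HT29 and 11.61 in resistant Colo205. Both differences had the same direction between the parents.

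Chemokine and NF-kB genes had a median of 0.91 over 20 members against 0.10 between the parents, with 9 higher in resistant HT29 and 1 in resistant Colo205 at 2-fold. Over the settings tried the median ran from 0.46 to 1.26. CXCL8, a neutrophil chemokine, differed by 2.35 and IL18, an inflammasome cytokine, by 1.95. TNFSF10, the death ligand TRAIL, was the 1 member 2-fold or more higher in resistant Colo205, at 9.09 against 6.93.

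Secretory and goblet lineage genes had a median of 0.72 over 20 members, but their leading members point both ways. AGR3, a disulphide isomerase of secretory cells, read 11.92 in resistant HT29 and 6.83 in resistant Colo205. TFF1, a gastric-type trefoil peptide, arose at 2.89, while TFF3, the intestinal trefoil peptide, differed by -2.99, with 8.50 in resistant HT29 and 11.50 in resistant Colo205. AGR2 and AGR3 lie in the chromosome 7 run, and without them the median was 0.61.

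HOX genes had a median of 0.61 over 19 members against 0.27 between the parents. At 2-fold 5 were higher in resistant HT29 and 0 in resistant Colo205, against 7 and 0 between the parents. HOXB9 read 8.88 in resistant HT29 and 6.10 in resistant Colo205, each below its parent (10.41 and 7.55). Its other probe set gave 0.36 between the resistant lines and 1.80 between the parents. With low readings raised to the filter value the HOX median was 0.07. The phospholipase and prostaglandin list had a median of 0.61 over 16 members, with a range of 0.31 to 1.51 over the settings tried. It held PLA2G4A, the cytosolic phospholipase, at 8.45 against 3.22, opposite in direction to PLA2G2A.

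Endothelial markers had a median of 1.45, over 5 measured members of 8. ENG, PECAM1 and ESAM, which epithelial lines can also express, differed by 1.45, 1.49 and 1.89. The resistant Colo205 reading of PECAM1 was 5.69, below the filter value. The lowest probe sets of ENG and PECAM1 gave 0.31 and 0.32. The remaining measured members, CLDN5 and VWF, differed the other way by -0.38 and -0.13. CDH5, the endothelial cadherin, was below the filter value in all 4 arrays, at 4.05 in resistant HT29 and 4.14 in resistant Colo205. The median ranged from 0.09 without the filter to 1.49 without probe sets shared between transcripts.

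Other lists differed little as a whole. The median was 0.08 over 32 cell cycle and replication genes, of which 1 was 2-fold higher in each line, and 0.04 over 23 cytosolic ribosomal proteins, of which 0 were. For 7 lists the median had opposite signs between the parents and between the resistant lines. Among them were ATF4 and amino acid response genes, at -0.54 and 0.08 over 28 members. Of these, 10 were 2-fold or more higher in parental Colo205 and 1 in resistant Colo205, where 11.5% and 10.4% of all genes were. The median move of the list was -0.65 in Colo205 and -0.16 in HT29. PHGDH, the first enzyme of serine synthesis and named after its values were seen, read 10.08 and 8.09 in Colo205 against 7.97 and 7.52 in HT29. Over the settings tried, the resistant median of this list ran from -0.08 to 0.14.

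Single members differed widely in lists whose median lay under 0.5 in size. In the extracellular protease list, whose median of 0.37 ranged from 0.34 to 1.01 over the settings tried, SERPINA1, the elastase inhibitor, read 11.07 in resistant HT29 and 5.17 in resistant Colo205, and MMP7, matrilysin, 11.99 and 6.40. The growth factor list had a median of 0.23, with a range of 0.07 to 0.55. In it PDGFC, a platelet-derived growth factor, was at least 36.1-fold higher in resistant HT29 and FGF19, an enteric hormone, at least 20.8-fold higher in resistant Colo205. The other probe set of PDGFC gave 3.24. In the aldehyde and retinoid list (median -0.29, range -0.30 to -0.14), ALDH1A3, a retinal dehydrogenase, read 12.12 in resistant HT29 and 5.12 in resistant Colo205, at least 84.2-fold higher, after 9.39 and 5.64 in the parents.

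**Figure D4:**
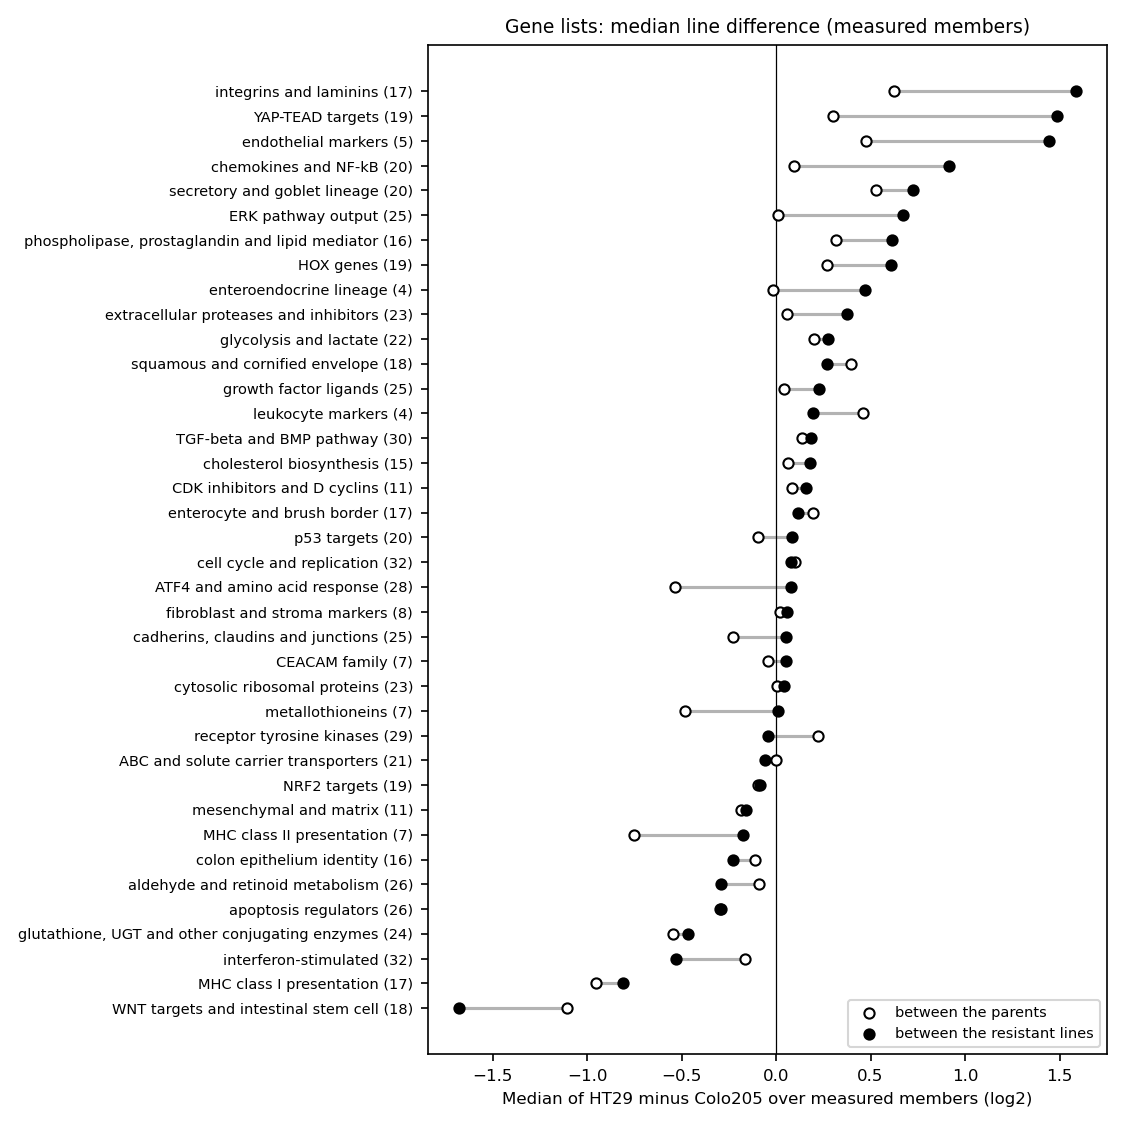
Median HT29 minus Colo205 difference (x axis, log2) of each of 38 gene lists, with the number of measured members in brackets, between the parents (open) and between the resistant lines (filled). Integrins and laminins and YAP-TEAD targets lie furthest right, at 1.59 and 1.49, and WNT and stem cell genes furthest left, at -1.68.

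Some line differences followed position along a chromosome. Chromosome 13 stood lowest: its 238 genes had a median of -0.98 between the resistant lines and -0.77 between the parents. Of them 49.2% were 2-fold or more higher in resistant Colo205, against 10.4% of all genes. A running median over 51 neighbouring genes lay at -0.5 or below over a run of 188 genes from MIPEP to ANKRD10, whose median was -1.05 against -0.83 between the parents. This run and those below were delimited on the values they are described by, so their medians and shares follow in part from that choice. FGF9, described above, lies on this chromosome.

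On chromosome 7 a run of neighbours differed more between the resistant lines than between the parents. From SNX8 to ZNF107, 190 measured genes had a median of 0.86 between the resistant lines and 0.24 between the parents, with a median move of 0.56 in HT29 and 0.02 in Colo205. In this run 46.3% of genes were 2-fold or more higher in resistant HT29, against 8.75% of the other autosomal genes, and 88 genes did so where 23 had between the parents. Differences that arose in favour of HT29 were 5 of the 190 genes, or 2.63%, and 76 of the other 13033, or 0.583%. From ABCB1 to SMURF1, 41 genes of the same chromosome went the other way, from 0.38 to -0.08.

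The median of chromosome 12 was 0.18 between the resistant lines and 0.08 between the parents, and that of chromosome 15 was 0.12 and -0.00. In both, the move was larger in Colo205, -0.25 and -0.23 as the median over the chromosome. On chromosome 11, 58 genes from TIMM10B to C11orf58 had a median of -0.14 between the parents and 0.12 between the resistant lines, with a median move of -0.44 in Colo205. Among shorter runs, 25 genes of chromosome 6 from TSPO2 to PRPH2 had medians of -1.38 between the resistant lines and -1.53 between the parents, and 49 genes of chromosome 1 from SLC44A5 to DIPK1A had 0.91 and 0.73. Others differed more between the states: 17 genes of chromosome 8 from CDCA2 to ZNF395 had -0.90 and -0.30, 52 from KIF13B to AP3M2 had -0.57 and -0.25, and 60 of chromosome 12 from ZDHHC17 to NUP37 had 0.59 and 0.28. Copy number was not measured. Run limits of 0.5, of 0.4 for the shift, and of 10 genes were chosen after the values were seen.

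**Figure D5:**
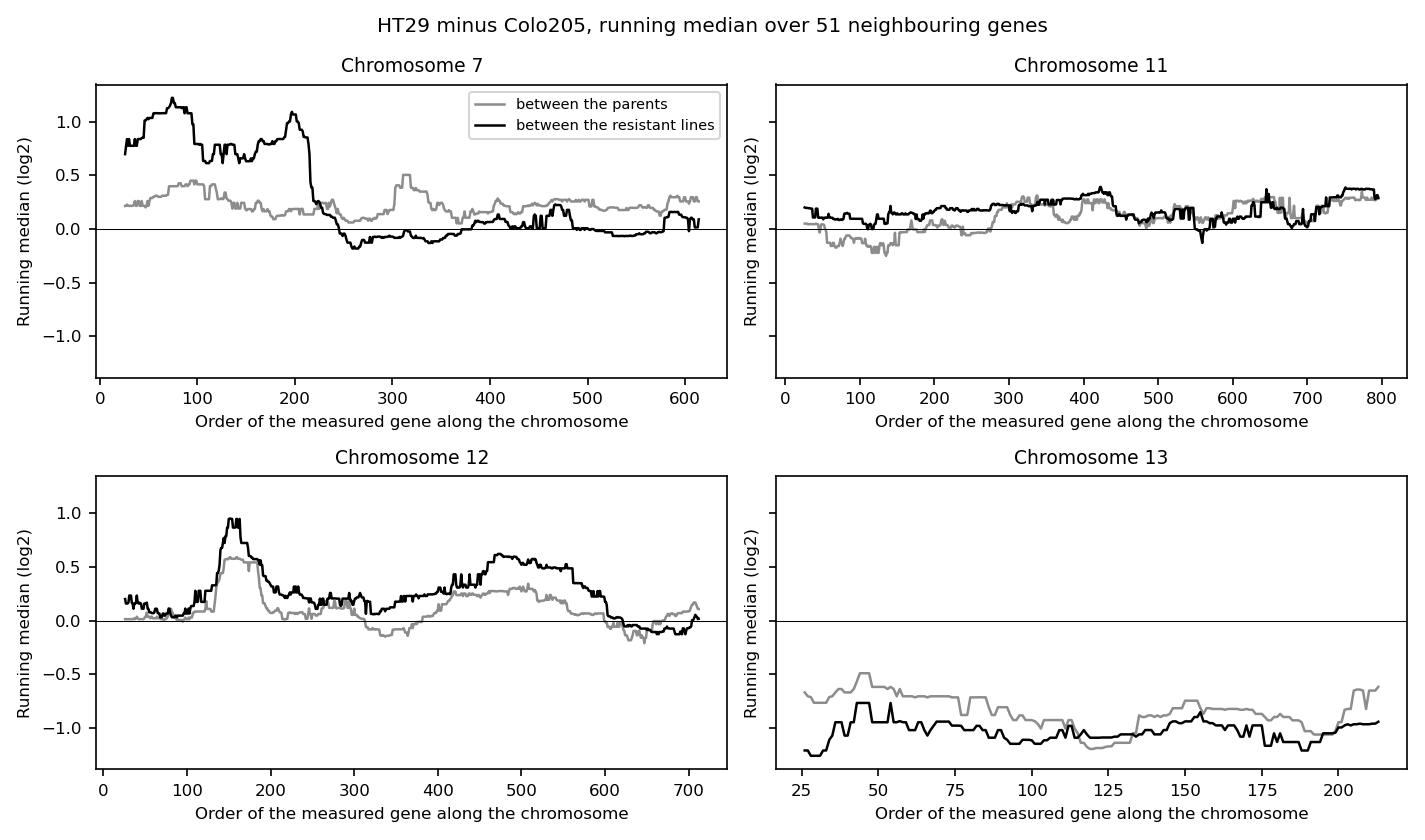
Running median of the HT29 minus Colo205 difference (y axis, log2) over 51 neighbouring measured genes, plotted against gene order (x axis) for 4 chromosomes, between the parents in grey and between the resistant lines in black. The left end of chromosome 7 is raised in the resistant lines, where the SNX8 to ZNF107 run has a median of 0.86 against 0.24, and chromosome 13 is below 0 throughout in both.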

How the data were processed

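RNA of 4 cell cultures was measured on Affymetrix expression arrays, 1 each for HT29, Colo205 and their PLX4720-resistant derivatives. The deposited table holds log2 signals of 54675 probe sets, summarised by the authors on a scale that was taken as log2 from the range of the values. MAS5 and RMA are listed in the submitters' processing notes with no role or version. The way background was corrected was not given in the sources used here. Of the probe sets, 41091 named 1 gene and 39662 of these an autosomal gene; 62 are controls. Gene order and symbols come from RefSeq (GRCh38.p14). The probe set with the highest mean signal represented each gene, and genes with no reading at 5.73 or above were left out. The difference is HT29 minus Colo205. A difference of 4-fold or more that falls under 2-fold counts as vanished, and the reverse as arisen.

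With 1 array a side there is no test. The number of arrays limits the precision. Genes the naming rule took have all probe sets on one side of 0. The rule took, per direction, the 6 largest differences with both readings past the filter, the 6 with 1 reading below it and the highest other reading, the 6 leading genes that remain, vanish or arise, the 4 leading turns, and from each list the 2 members at either end, 190 genes in all. TIMP2, PHGDH, IFIT3, LATS2, SPRR1B, ENG, AGR2 and CMAS were named after their values were seen. The members, lists and rules were chosen with earlier results of these data known. Promoter windows were matched for 80.1% of the genes, too few in several categories to compare them by sequence. The sorting into categories was checked on simulated data. The noise there was smaller than the scatter between probe sets seen here, and the planted differences lay well away from the limits. The check covers only whether the code sorts genes as defined, and not how reliably real differences fall into a category. Python 3.11.15, pandas 2.3.3 and numpy 2.4.6 were used. Some genes are not reported here.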

Additional observations from a re-analysis of the deposited data

Results flagged for a closer look

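In 21 genes the sign of the difference between the lines was opposite before and after resistance, with 2-fold or more on both sides. They are listed for this opposite direction, and with 1 array a group the difference was not tested. The values are HT29 minus Colo205 (log2), first between the parents and then between the resistant lines. Of these genes, 18 ended higher in resistant HT29: TIMP2 (-1.24 and 4.89), DNAJC12 (-2.12 and 3.57), MATN2 (-1.39 and 3.20), TOX2 (-1.28 and 2.65), SLC30A4 (-1.30 and 2.22), GPX8 (-1.04 and 1.82), GEM (-1.74 and 1.64), LAT2 (-1.73 and 1.54), FOXD1 (-2.23 and 1.53). The rest of the 18 were SNX24 (-1.05 and 1.52), CNN3 (-1.23 and 1.45), LCN2 (-1.23 and 1.45), MYO5A (-1.99 and 1.39), PEAR1 (-1.67 and 1.27), CYTH3 (-1.04 and 1.24), TIMP4 (-1.13 and 1.21), CCL20 (-1.18 and 1.07), PHYH (-1.16 and 1.01). Those that ended higher in resistant Colo205 were IFIT1 (2.56 and -1.90), ADRA2A (2.31 and -1.09), RNF144B (1.5 and -1.04). A resistant reading lay below the filter value in 7 of the 18 and in 2 of the 3, and of the 6 genes among the 18 with several probe sets, 3 had all of them on one side of 0. The 1 gene among the 3 with several probe sets did not. A difference that rests on a reading below that value has no exact size. Those that the naming rule does not take were named after their values were seen.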

How the results depend on the processing

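Each array stands for 1 line and state, so leaving out a replicate was not possible. No paired analysis was possible because each line and state has 1 array. Fold limits set the counts most: at 2-fold, with 1.5-fold as the lower limit, 678 differences in favour of HT29 and 988 in favour of Colo205 remained, 108 and 253 vanished, 283 and 163 arose, and 59 and 15 turned. A filter at the 75th percentile of all readings left 37 vanished differences in favour of Colo205 and 11 turns toward HT29, put the share that remained at 73.0% and gave 18 lists past 0.5; no filter gave 6 lists. Raising low readings to the filter value left 42 and 11 of those genes. Centring each array gave 5 turns toward Colo205 and put the parental share in favour of HT29 at 40.5%. The other counts and shares stayed within 1.5 times, or within their binomial interval, under these settings, under the mean of a gene's probe sets, quantile normalization and a 25-gene window, without shared probe sets, and with chromosomes 12, 13 and 15 left out, which was added after the values were seen. For single genes and list medians the spread between probe sets stood in for the missing replicates, as a measure of technical scatter only. Probe sets of a gene share the same arrays, so it holds no spread between cultures. Of 190 named genes, 181 kept their direction with low readings raised and 188 with centred arrays. At the higher filter 155 had a value, and 141 did without shared probe sets. Each of those kept its direction, which the naming rule fixed in advance. It took only genes whose probe sets past the filter all have the same sign, so these settings could not turn them. Values moved by more than the spread between probe sets in 46 of the 190 under the mean of a gene's probe sets, in 42 with low readings raised and in 15 of the 141.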
